A study of Mus musculus with 11 samples.

Results

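The genes described are 38 mouse genes whose proteins make ribosomes in the nucleolus, out of 23071 gene identifiers in a table of RNA levels. They were chosen by name, with earlier results of these data known. All 38 were found, 37 under their listed symbol and Utp4 under its older symbol Cirh1a. They were sorted into 6 roles: box C/D and box H/ACA snoRNP proteins, nucleolar chaperones and scaffolds, small subunit processing, large subunit processing, and RNA polymerase I transcription. RNA of 11 libraries from C57BL/6 mice was sequenced. Progenitor B cells, purified on columns from bone marrow, gave 3 wild-type libraries (pools of 3, 7 and 6 mice for replicates 1, 2 and 3) and 3 Ebf1+/- libraries (Ebf1 heterozygous, pools of 3, 6 and 7 mice). The remaining 5 libraries hold leukemic B cells in suspension from lymph nodes of diseased Pax5+/- x Ebf1+/- mice, 1 mouse each, so the leukemias and the Ebf1 heterozygous pools share the loss of an Ebf1 copy. Pax5 and Ebf1 encode transcription factors that establish the B lineage. No age or treatment of the mice is given in the sources used here. Leukemic state, Pax5 genotype, tissue, purification and pooling differ together between the leukemias and the other libraries and cannot be told apart.

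Ribosomes are built in the nucleolus, where RNA polymerase I transcribes the ribosomal RNA precursor. Small nucleolar ribonucleoproteins (snoRNPs) guide its chemical modification, with box C/D particles adding methyl groups and box H/ACA particles converting uridine to pseudouridine. Processing factors then cut and fold the precursor into the small and large subunits. Growing cells make more ribosomes, and the transcription factor Myc is known to raise the expression of many of these genes.

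Values are FPKM, which count fragments per kilobase of a gene's transcript relative to the library total. Fold changes are differences of log2(FPKM + 1), which understate the change of low genes, and a gene is called when its adjusted p from limma is under 0.05. In units of 1e6 reads, the totals of the 11 libraries ran from 8.51 to 15.31, and no member had fewer than 216 reads in a library. Defining B lineage genes were present in every library. Cd79a, a chain of the B cell receptor, lay between 552 and 1092 FPKM in wild type, 373 and 1212 in Ebf1 heterozygous libraries and 609 and 941 in leukemia. The 3 groups thus overlapped for Cd79a, which did not hold for all of 10 progenitor B cell markers. All leukemia values lay above all wild-type values for 2 of the 10 (21.2% of all genes). Of these 10 markers, limma called 2 higher in leukemia against wild type (20.7% of all genes tested) and 1 lower (24.1%). Negative values were seen for 7 of them, beside 5762 of all 10968 genes. Markers of other marrow cells differed with the groups. The summed level of 14 granulocyte markers was 635 to 3410 FPKM in wild type, 2732 to 10699 in Ebf1 heterozygous libraries and 3.86 to 8.69 in leukemia, where Fcnb and Cebpe were at 0 in all libraries. Sums over 8 megakaryocyte and platelet markers were 78.3 to 459, 145 to 4131 and 0.414 to 1.38 FPKM in the same order. Sums over 9 erythroid markers were 216 to 1179, 472 to 1123 and 57 to 148, with Hba-a1, Hbb-bt and Hbb-bs listed at 0 in every library and Car1 at 0 in every leukemia. For 6 monocyte markers the sums were 354 to 585, 432 to 1772 and 57.9 to 156, and for 8 T cell markers 30.2 to 37.3, 34.7 to 55.8 and 56.6 to 111, none of either list at 0 throughout a group. Most T cell markers did not share the direction of their sum. Of 7 tested in leukemia against wild type 6 values were negative (median log2 fold change -0.63). Limma called 1 of the 7 higher and 1 lower, beside the same 20.7% and 24.1% of all genes. The part of these cells in the differences below was not tested. In such bulk samples, fewer cells of a type and less RNA per cell cannot be told apart.

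The 38 genes covered a wide range of levels. Npm1, a histone and ribosomal protein chaperone of the nucleolus, was the highest in each group, with 1037 ± 161 FPKM in leukemia (SD, n = 5), 595 ± 10.8 in Ebf1 heterozygous libraries (n = 3) and 492 ± 139 in wild type (n = 3). Polr1e, a subunit of RNA polymerase I, was the lowest in each group, with 10.1 ± 0.928, 6.63 ± 0.509 and 6.62 ± 0.549 FPKM in the same order. Below Npm1 in wild type stood Ncl at 151 ± 47.6 and Fbl at 146 ± 40.4 FPKM, whose libraries overlapped, and in leukemia Fbl stood at 278 ± 22.3 and Ncl at 222 ± 68.4. The order between genes rests on the length used for each, worked out as 8257 bases for Ncl and 1718 for Npm1. The most reads in a library were 33617 for Ncl and 29520 for Npm1. Gnl3 was 17th of 38 in wild type at 31.7 ± 14.4 FPKM and 9th in leukemia at 91.9 ± 15.7, while Ubtf was 8th in wild type at 70.3 ± 2.05 and 14th in leukemia at 61.4 ± 2.42.

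**Figure D1:**
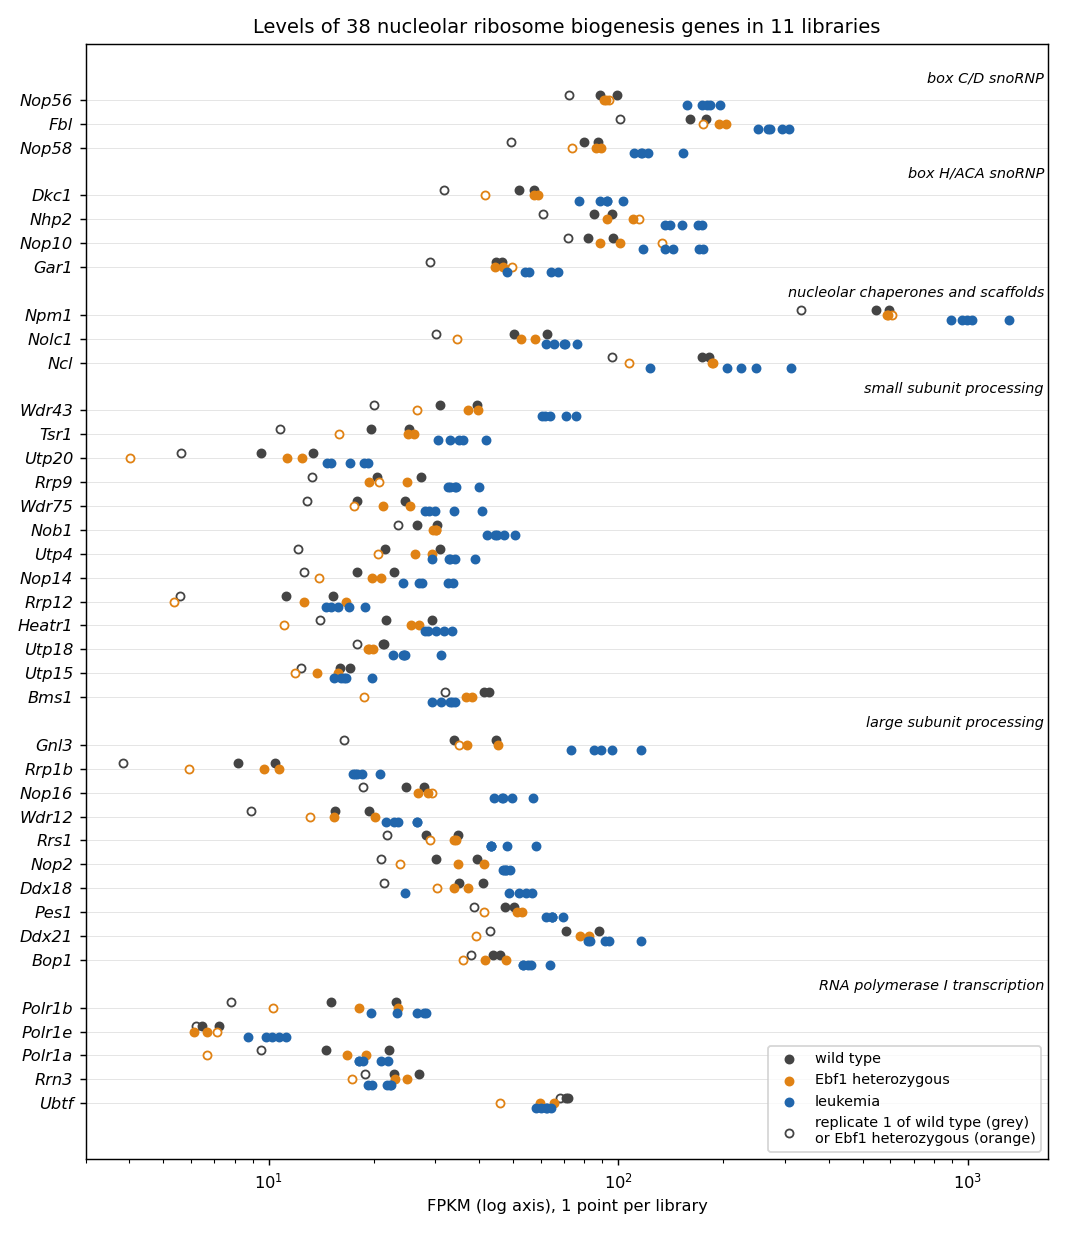
Level of each of the 38 genes (FPKM, log axis) in each library, 1 point per library, grouped by role. Leukemia points (blue) lie to the right of the wild-type points (grey) for 25 genes, and open circles mark replicate 1 of wild type and of Ebf1 heterozygous, which lie at the low end for most genes.

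The first comparison set the leukemias against wild-type progenitors. Of the 38 genes, 27 rose in leukemia and none fell, where limma called 20.7% of all 10968 genes tested higher and 24.1% lower. Positive values were seen for 35 genes, and the median log2 fold change was 0.72, beside -0.04 over all genes tested. All leukemia values lay above all wild-type values for 25 of the 38 genes (21.2% of all genes) and below them for 1, Ubtf (25.1% of all genes). The counts by role were 3 of 3 box C/D proteins, 4 of 4 box H/ACA proteins, 2 of 3 chaperones, 8 of 13 small subunit factors, 8 of 10 large subunit factors and 2 of 5 RNA polymerase I genes. Wild-type replicate 1 bore on the sizes: without it the median was 0.47, 23 genes rose and 1 fell, Bms1 (log2 fold change -0.37, SE 0.09, limma adjusted p = 0.0162). Of all 10931 genes tested without it, 1787 were higher and 2086 lower.

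**Figure D2:**
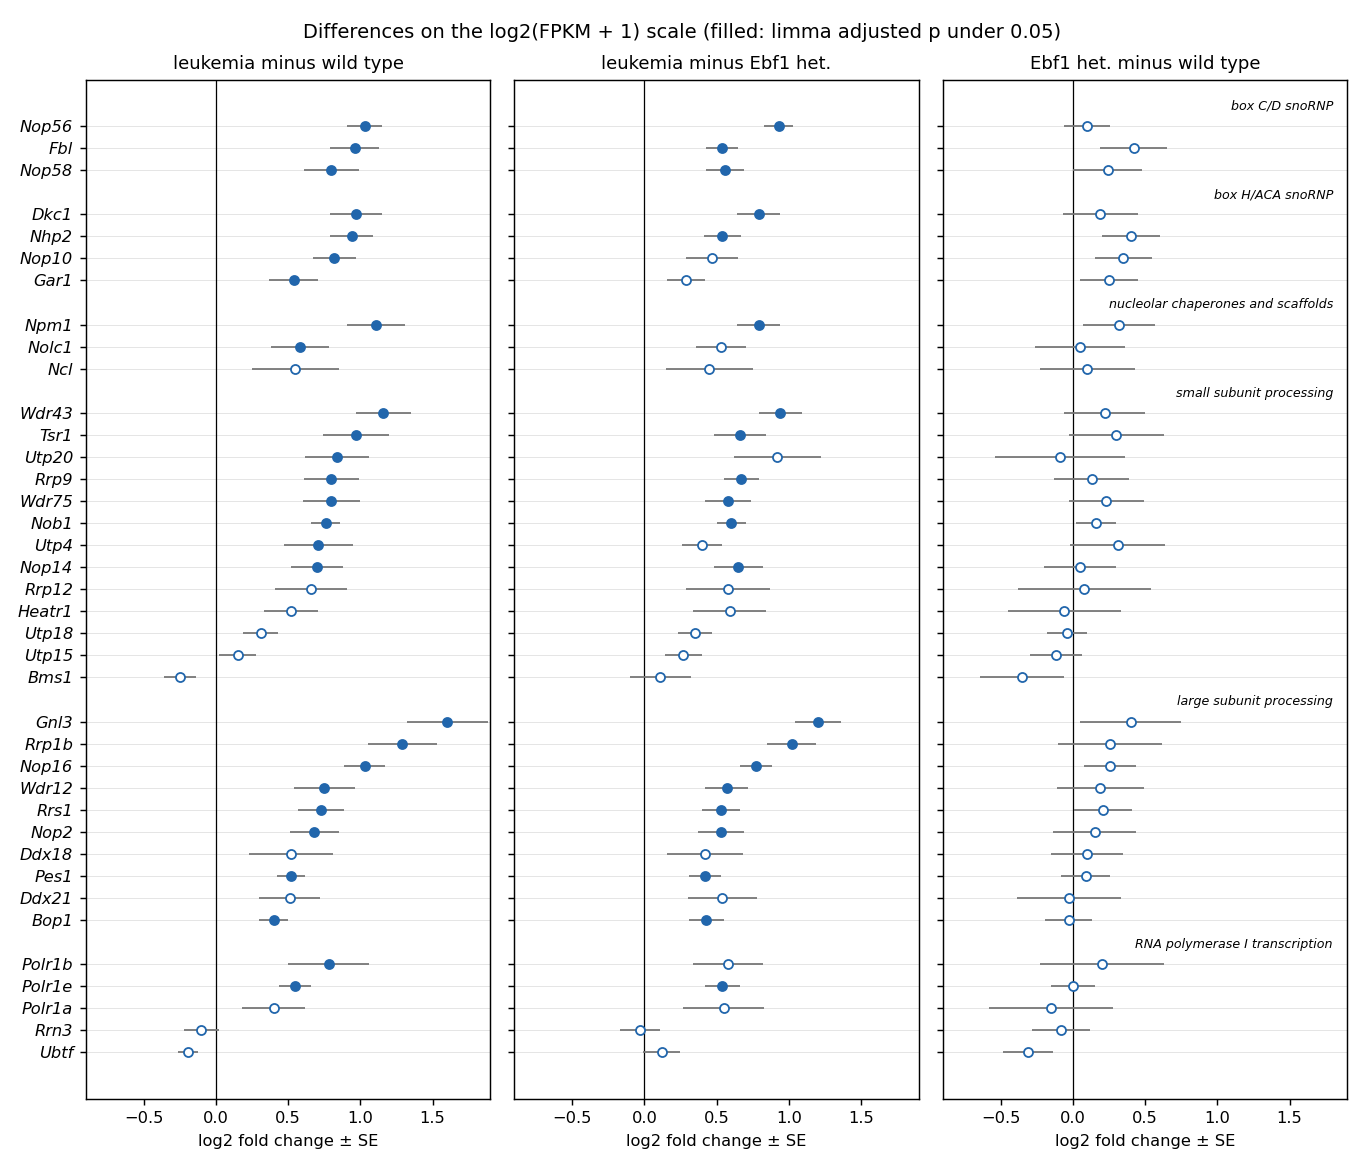
Log2 fold change ± SE of each of the 38 genes on the log2(FPKM + 1) scale in the 3 comparisons, filled where the limma adjusted p was under 0.05. In leukemia against wild type 27 points are filled, in leukemia against Ebf1 heterozygous 21, and in Ebf1 heterozygous against wild type 0.

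The box C/D core rose as a whole. Nop56, a scaffold of the methylation particle (chromosome 2, 130274430 to 130279313, GRCm38), stood at 72.4, 88.7 and 99 FPKM in wild-type replicates 1 to 3, at 94.1, 90.8 and 92.3 in Ebf1 heterozygous libraries, and at 183, 195, 174, 157 and 179 in leukemias 1 to 5. Every leukemia was far above every progenitor library, and the progenitor groups overlapped (leukemia against wild type 1.03, SE 0.12, limma adjusted p = 0.000216). Fbl, the methyltransferase fibrillarin (chromosome 7, 28169710 to 28179269), was at 101, 160 and 178 FPKM in wild type, 175, 194 and 204 in Ebf1 heterozygous libraries, and 268, 294, 272, 308 and 251 in leukemia. Again no leukemia overlapped a progenitor library (0.96, SE 0.17, limma adjusted p = 0.00229). Nop58, the second scaffold (chromosome 1, 59684971 to 59719044), was at 49.4, 79.8 and 87.7 FPKM in wild type and at 116, 153, 117, 111 and 122 in leukemia, with leukemia 2 set above the rest (0.80, SE 0.19, limma adjusted p = 0.00806).

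The box H/ACA core also rose as a whole. Dkc1, the pseudouridine synthase dyskerin (chromosome X, 75095854 to 75109777), was at 31.7, 52 and 57.4 FPKM in wild type, 41.6, 57.6 and 58.8 in Ebf1 heterozygous libraries, and 92.7, 103, 77.1, 92.9 and 88.6 in leukemia. All 5 leukemias stood above the 6 progenitor libraries (0.97, SE 0.18, limma adjusted p = 0.00282). Nhp2, an RNA-binding core protein (chromosome 11, 51619735 to 51623714), was at 61.1, 85.3 and 96.2 FPKM in wild type, 115, 92.7 and 110 in Ebf1 heterozygous libraries, and 141, 174, 169, 136 and 152 in leukemia, again without overlap (0.94, SE 0.15, limma adjusted p = 0.00135). Nop10, the smallest core protein, had a log2 fold change of 0.82. Gar1, the fourth core protein (chromosome 3, 129824912 to 129831396), had the smallest difference of the 4. It stood at 28.9, 46.4 and 44.7 FPKM in wild type and 48.2, 67.2, 54, 64.2 and 55.7 in leukemia, so that the lowest leukemia was close to the highest wild-type pool (0.54, SE 0.17, limma adjusted p = 0.0295). Its call was lost without wild-type replicate 1 (limma adjusted p = 0.0951), without leukemia 2 (0.0588) or 4 (0.0569), and with equal FPKM sums (0.162).

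Of the chaperones and scaffolds, Npm1 (chromosome 11, 33152287 to 33163206) rose most. It stood at 333, 545 and 596 FPKM in wild type, 607, 588 and 590 in Ebf1 heterozygous libraries, and 1025, 1312, 961, 893 and 995 in leukemia. The leukemias lay well above both progenitor groups (1.11, SE 0.20, limma adjusted p = 0.00239). Nolc1, a scaffold that binds snoRNPs and RNA polymerase I (chromosome 19, 46075863 to 46085530), was at 30.1, 50.2 and 62.7 FPKM in wild type and 65.7, 76, 62, 70.5 and 70.1 in leukemia. Leukemia 3 lay just below the highest wild-type pool, and the call was narrow (0.58, SE 0.20, limma adjusted p = 0.042): it was lost in 11 of 17 alternative analyses, where the adjusted p ran up to 0.172.

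Ncl and Ddx18 stood apart in leukemia 4. Ncl encodes nucleolin, an RNA-binding protein of the nucleolus (chromosome 1, 86344719 to 86359400). It was at 95.9, 174 and 182 FPKM in wild type, 107, 187 and 185 in Ebf1 heterozygous libraries, and 205, 311, 224, 123 and 247 in leukemia. Leukemia 4 lay among the progenitors and the other 4 above all of them. Ncl did not pass the test (0.55, SE 0.30, limma adjusted p = 0.171), and it passed without leukemia 4 (0.75, SE 0.24, limma adjusted p = 0.0368). Without wild-type replicate 1 it had 0.25 (limma adjusted p = 0.542), and it was called in 2 of 18 settings. Ddx18, an RNA helicase of the large subunit pathway (chromosome 1, 121553835 to 121567989), showed the same order. It was at 21.4, 35.1 and 41 FPKM in wild type, 30.3, 33.9 and 37.2 in Ebf1 heterozygous libraries, and 48.7, 56.6, 51.9, 24.5 and 54.4 in leukemia (0.52, SE 0.29, limma adjusted p = 0.18; without leukemia 4, 0.73, SE 0.20, adjusted p = 0.0191). Without wild-type replicate 1 Ddx18 also had 0.25 (limma adjusted p = 0.542), and it too was called in 2 of 18 settings.

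Both genes lie in a stretch of chromosome 1 that was low in that library. Leukemia 4 was compared with the mean of the other 4 leukemias, over genes with a leukemia mean of at least 5 FPKM. Between 80 and 130 Mb on chromosome 1 (GRCm38), a stretch marked out after the values were seen, 72 such genes had a median log2 difference of -0.88. Over the other 371 genes of chromosome 1 the median was 0.00, and over all other chromosomes it was 0.04. Of the 72 genes, 67 had their lowest leukemia value in leukemia 4 (93.1%, beside 17% of genes elsewhere). In the other 4 leukemias the median of these 72 genes was 0.15 to 0.26. Each of those was set against a mean that includes leukemia 4, whose low values by themselves raise these medians. Ncl differed by -0.99 and Ddx18 by -1.08 in leukemia 4, while Rrs1, Wdr75, Nop58 and Wdr12, which lie outside the stretch on the same chromosome, differed by -0.14 to -0.19. Nifk, a nucleolar protein that binds the proliferation antigen Ki-67 and is not among the 38, lies inside the stretch and differed by -0.86. The DNA of this leukemia was not analysed here, and what set the stretch apart was not tested.

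**Figure D3:**
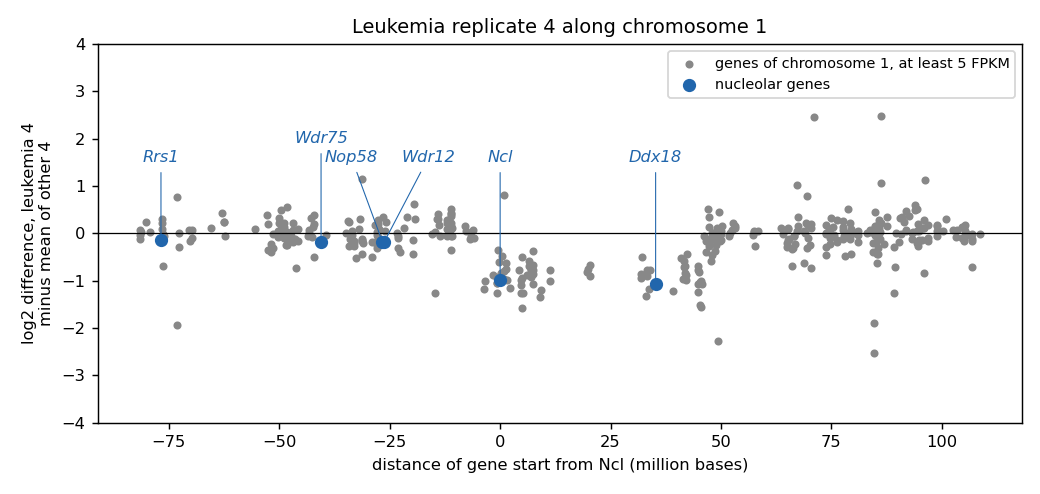
Each point is a gene of chromosome 1 with at least 5 FPKM over the leukemias, placed by the distance of its start from that of Ncl (Mb) and by its log2 difference between leukemia 4 and the mean of the other 4 leukemias. Ncl and Ddx18 (blue) sit at -0.99 and -1.08 with their neighbours, and Rrs1, Wdr75, Nop58 and Wdr12 lie near 0.

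Large subunit factors held the 2 highest fold changes of the 38 genes. Gnl3 encodes nucleostemin, a nucleolar GTPase known from stem and tumour cells (chromosome 14, 31012433 to 31019152). It stood at 16.4, 34 and 44.8 FPKM in wild type, 35.1, 37 and 45.2 in Ebf1 heterozygous libraries, and 96.1, 116, 85, 73.4 and 89.3 in leukemia. The lowest leukemia was above the highest progenitor pool (1.60, SE 0.28, limma adjusted p = 0.00204), and the fold was 1.20 without wild-type replicate 1. Rrp1b, a regulator of the precursor's processing (chromosome 17, 32036100 to 32062865), was at 3.84, 8.16 and 10.4 FPKM in wild type, 5.94, 9.7 and 10.7 in Ebf1 heterozygous libraries, and 17.9, 20.8, 17.4, 18.5 and 17.7 in leukemia. The leukemias were close to each other and clear of the progenitors (1.29, SE 0.24, limma adjusted p = 0.00262). Bop1, which with Pes1 and Wdr12 forms the PeBoW complex (chromosome 15, 76452989 to 76477277), had the smallest fold change of the role. It stood at 37.9, 43.7 and 46 FPKM in wild type and 53.4, 56.4, 63.8, 53.3 and 55.3 in leukemia, still without overlap (0.40, SE 0.10, limma adjusted p = 0.00967). With equal FPKM sums it had 0.20 and the call was lost (limma adjusted p = 0.155), as was that of Wdr12. All 3 PeBoW genes rose, Pes1 by 0.52 and Wdr12 by 0.75. Nop16, Rrs1 and the methyltransferase gene Nop2 rose by 1.03, 0.73 and 0.68, and the helicase gene Ddx21 did not pass (0.51, SE 0.21, limma adjusted p = 0.0775).

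Small subunit factors were mixed. Wdr43, a component of the early processome (chromosome 17, 71615895 to 71659031), was at 20, 30.9 and 39.5 FPKM in wild type, 26.5, 37.1 and 39.7 in Ebf1 heterozygous libraries, and 60.5, 75.7, 70.8, 61.8 and 63.7 in leukemia. No leukemia came near the progenitors (1.16, SE 0.19, limma adjusted p = 0.00141). Tsr1, a GTPase-like late assembly factor (chromosome 11, 74898071 to 74909342), was at 10.8, 19.6 and 25.2 FPKM in wild type and 36, 41.9, 30.6, 35.1 and 33 in leukemia (0.97, SE 0.23, limma adjusted p = 0.00848). Utp20, Rrp9, Wdr75, Nob1, Utp4 and Nop14 also rose, by 0.70 to 0.84. Utp4 was called in 9 of 18 settings, with limma adjusted p-values up to 0.12, and had 0.36 without wild-type replicate 1 (limma adjusted p = 0.106). Utp20 and Nop14 were called in 16 of the 18. Nob1, the nuclease that makes the final cut of the small subunit RNA, was tight in each group, at 26.8 ± 3.4 FPKM in wild type (SD, n = 3) and 45.8 ± 3.32 in leukemia (n = 5).

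The other 5 small subunit genes did not pass. Utp15, of the early processome (chromosome 13, 98246845 to 98263041), had the value nearest 0 in the role, at 12.4, 16 and 17.1 FPKM in wild type and 16.4, 19.7, 15.4, 16.7 and 16.1 in leukemia (0.15, SE 0.13, limma adjusted p = 0.355). Its groups overlapped, and the sign turned (-0.04) when the libraries were scaled to equal FPKM sums. Utp18, Heatr1 and Rrp12 had 0.31, 0.52 and 0.66, with limma adjusted p-values of 0.0576, 0.0533 and 0.06. Bms1, a GTPase of the processome, was at 32, 41.2 and 42.8 FPKM in wild type and 31.2, 33.5, 29.4, 33 and 34.2 in leukemia, where the low wild-type replicate 1 lay within the leukemias and the other pools above them (-0.25, SE 0.11, limma adjusted p = 0.102).

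The RNA polymerase I genes were divided. Polr1b, the second largest subunit of the enzyme (chromosome 2, 129100995 to 129126594), was at 7.8, 15.1 and 23.1 FPKM in wild type and 28.2, 26.5, 19.6, 27.9 and 23.3 in leukemia, overlapping in leukemia 3 (0.78, SE 0.28, limma adjusted p = 0.048). That call was lost in 11 of 17 alternative analyses, where the adjusted p ran up to 0.158. Polr1e (chromosome 4, 45018583 to 45036565) was at 6.18, 6.44 and 7.23 FPKM in wild type, 7.13, 6.11 and 6.65 in Ebf1 heterozygous libraries, and 10.7, 11.2, 9.83, 8.76 and 10.2 in leukemia, apart from all progenitors (0.55, SE 0.11, limma adjusted p = 0.00364). Polr1a, the largest subunit, had 0.40 and did not pass (limma adjusted p = 0.165).

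Rrn3 and Ubtf were not called. Rrn3, which recruits the enzyme to its promoter (chromosome 16, 13780708 to 13814839), was at 18.9, 22.8 and 27 FPKM in wild type, 17.3, 23 and 24.8 in Ebf1 heterozygous libraries, and 19.7, 22.4, 19.2, 21.8 and 22.3 in leukemia. Every leukemia lay within the wild-type range (-0.10, SE 0.12, limma adjusted p = 0.52). Ubtf, the upstream binding factor that keeps ribosomal RNA genes open (chromosome 11, 102304560 to 102319742), was at 68, 72 and 71 FPKM in wild type, 45.9, 65.7 and 59.9 in Ebf1 heterozygous libraries, and 60, 62.1, 58, 64.2 and 62.7 in leukemia. All leukemias and all Ebf1 heterozygous libraries lay below the wild-type pools, by a small margin (leukemia against wild type -0.19, SE 0.07, limma adjusted p = 0.0605). Ubtf was called lower when the filter on low genes was dropped (limma adjusted p = 0.0246) and, together with Bms1, when FPKM sums were made equal. That scaling moved the median of all genes to -0.22, and of all calls 27.9% were then higher, beside 46.1% on the deposited scale. Under it 19 of the 38 genes were higher and 2 lower, beside 1471 and 3804 of all 10968 genes. The median of the 38 genes was then 0.53, which is 0.75 above that of all genes, beside 0.76 above on the deposited scale.

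**Figure D4:**
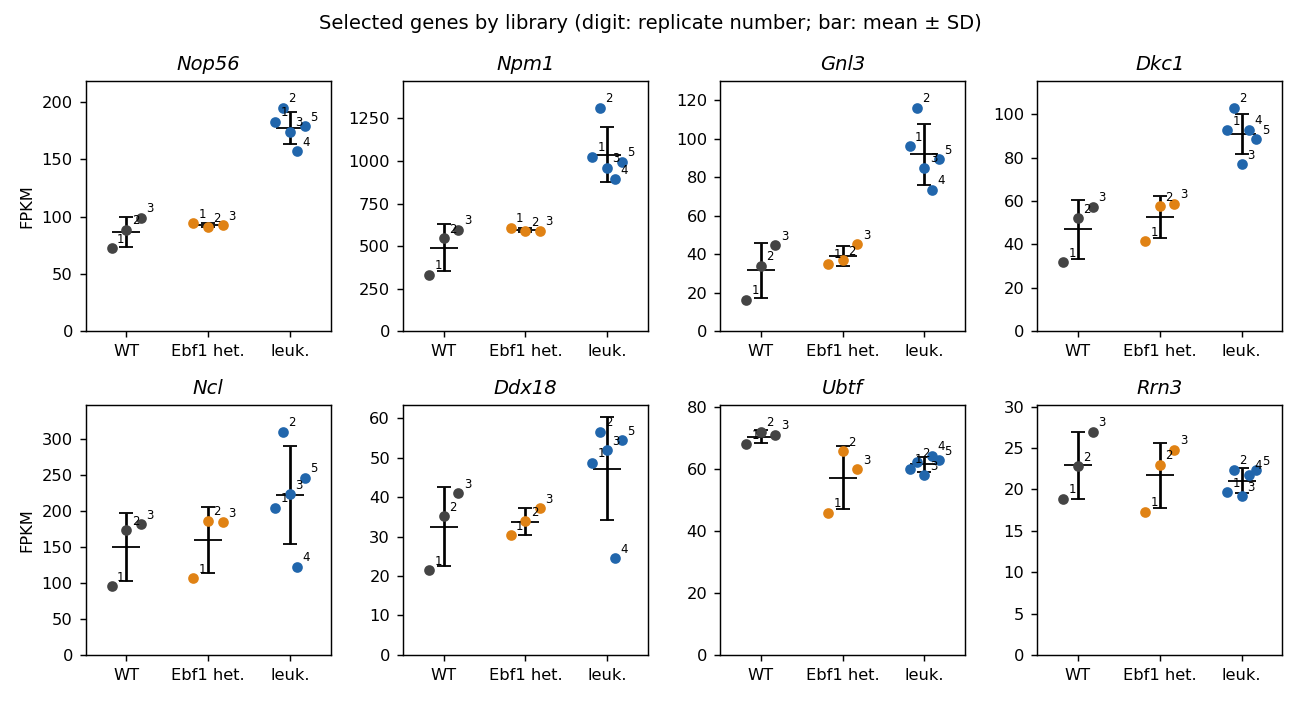
FPKM of 8 of the 38 genes in each library, with the replicate number beside each point and the mean ± SD of each group (wild type n = 3, Ebf1 heterozygous n = 3, leukemia n = 5). Nop56, Npm1, Gnl3 and Dkc1 separate the leukemias from both progenitor groups, leukemia 4 is low for Ncl and Ddx18, and Ubtf and Rrn3 are not raised.

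The 38 genes moved together between the wild-type pools. Wild-type replicate 1 had the lowest of the 3 values for all 38 genes (41.3% of all genes), and replicate 3 the highest for 35 (39.2%). Against the wild-type mean, the median log2 difference of the 38 genes was -0.50, 0.09 and 0.33 in replicates 1, 2 and 3. In the Ebf1 heterozygous libraries it was -0.13, 0.21 and 0.33, with replicate 1 lowest for 28 genes (36.5% of all genes) and replicate 3 highest for 25 (28.7%). In leukemias 1 to 5 it was 0.64, 0.88, 0.66, 0.68 and 0.70, and leukemia 2 was highest for 25 of 38 genes (20.7% of all genes). The highest wild-type median, 0.33, was thus below the lowest leukemia median, 0.64.

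Granulocyte markers ran in the opposite order in the wild-type pools, with sums of 3410, 1814 and 635 FPKM in replicates 1, 2 and 3. The Ebf1 heterozygous sums were 10699, 2732 and 4016 FPKM, and replicate 1 was again the library with the highest granulocyte sum and the lowest median of the 38 genes. The progenitor B cell markers summed to 5458, 4279 and 3083 FPKM in the wild-type pools, in the same order as the granulocyte markers. In Ebf1 heterozygous replicates 1 to 3 they summed to 6702, 4751 and 2145 FPKM. In both groups this order was opposite to that of the medians of the 38 genes. The erythroid sums (216, 605 and 1179 FPKM) and the megakaryocyte and platelet sums (78.3, 257 and 459 FPKM) ran in the same order as the 38 genes in these pools. In Ebf1 heterozygous replicates 1 to 3 the erythroid sums were 482, 472 and 1123 FPKM and the megakaryocyte and platelet sums 145, 267 and 4131. The part of these cells in the order of the pools was not tested. Replicates 1 of wild type and of Ebf1 heterozygous were both pools of 3 mice, fewer than in the other pools.

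**Figure D5:**
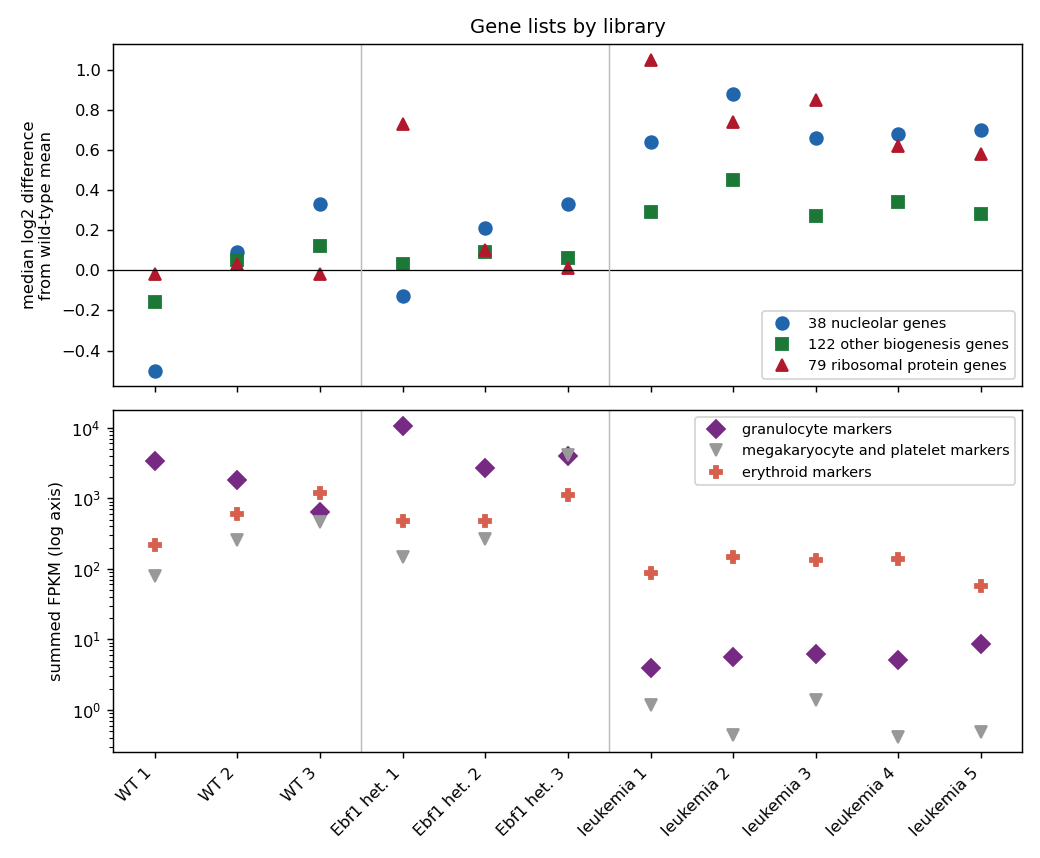
Upper panel: median log2 difference from the wild-type mean of the 38 nucleolar genes, 122 other ribosome biogenesis genes and 79 ribosomal protein genes in each library. Lower panel: summed FPKM (log axis) of granulocyte, megakaryocyte and platelet, and erythroid markers. The nucleolar genes span -0.50 to 0.33 in wild type and 0.64 to 0.88 in leukemia, and the marker sums are lowest in leukemia.

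The spread of the 38 genes differed from that of other genes by group. The median coefficient of variation was 28.8% over the wild-type pools, 18% over the Ebf1 heterozygous libraries and 10.3% over the leukemias. Over all 11173 genes of at least 1 FPKM it was 14.3%, 23.5% and 15.1%. By these medians the wild-type pools varied more in the 38 genes than over all genes, and the leukemias less. This is a description for which no test was run. The 38 genes and all genes were not matched for level, and the part of level in this difference was not tested. Polr1b had the widest spread of the 38 genes over the wild-type pools, from 7.8 to 23.1 FPKM (49.9%), beside 14.4% over the leukemias.

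The second comparison set Ebf1 heterozygous progenitors against wild type. No gene of the 38 was called in either direction by limma, which called 0% of all 11167 genes tested. At an unadjusted p under 0.05 limma had 0 of the 38 genes and 863 of all genes (7.73%), and voom on recovered reads also called 0 of the 38. This fit did not pair the libraries by replicate number. With a replicate block, which did, limma had 1 of the 38 genes at an unadjusted p under 0.05. Over all genes the block gave 1085 higher and 715 lower at that p, and 0 called. The median log2 fold change was 0.14, beside 0.03 over all genes, and 28 of 38 values were positive. No gene had all Ebf1 heterozygous values above wild type (7.53% of all genes), and 1, Ubtf, had all below (8.1%). Without wild-type replicate 1 the median was -0.09 and 9 of 38 values were positive, so the sign of this small difference rested on that pool. The listed alignment tools differ between these groups and cannot be told apart from genotype.

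Role by role, none of the differences passed the test. Fbl had the highest value of the box C/D genes (0.42, SE 0.23, limma adjusted p = 0.719) and Nop56 the lowest (0.10, SE 0.16, limma adjusted p = 0.863). Nhp2 had 0.40 and Dkc1 0.19 among the box H/ACA genes, Npm1 0.32 and Nolc1 0.05 among the chaperones, and Gnl3 0.40 and Bop1 -0.03 among the large subunit factors. Bms1 had the lowest value of the 38 (-0.35, SE 0.29, limma adjusted p = 0.778), with 18.7, 38.2 and 36.8 FPKM in the Ebf1 heterozygous libraries, of which replicate 1 was far below the others. Utp18 had -0.04. Ubtf had -0.31 (SE 0.17, limma adjusted p = 0.716) and Polr1e 0.00.

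The third comparison set the leukemias against the Ebf1 heterozygous progenitors. It shares the leukemias with the first comparison, and the second shares the wild-type pools with it, so the 3 are not independent and their values are given side by side. The listed alignment tools differ here too and cannot be told apart from the groups. Here 21 of 38 genes rose and none fell, where limma called 9.31% of all 11161 genes higher and 12.3% lower. Quantile scaling turned the balance of all calls from 43.1% to 57.5% higher. Under it 26 of the 38 genes were higher, and 1538 of all 11161 genes, beside 1039 on the deposited scale. Positive values were seen for 37 genes, the median was 0.55 (all genes -0.02), and all leukemia values lay above all Ebf1 heterozygous values for 26 genes (12.9% of all genes). With equal FPKM sums 11 of the 38 genes were higher, at a median of 0.47, beside 718 of all 11161 genes.

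Gnl3, Rrp1b, Wdr43 and Nop56 had the 4 highest values here. Gnl3 had 1.20 (SE 0.16, limma adjusted p = 0.00125), beside 1.60 against wild type. Rrp1b had 1.02 (SE 0.17, limma adjusted p = 0.00442), beside 1.29. Wdr43 had 0.94 (SE 0.15, limma adjusted p = 0.00316), beside 1.16, and Nop56 0.93 (SE 0.10, limma adjusted p = 0.000542), beside 1.03. Among the box H/ACA genes Dkc1 had 0.79 and Nhp2 0.54, and both rose, while Nop10 (0.47) and Gar1 (0.29) did not pass, with limma adjusted p-values of 0.0895 and 0.145. All 3 box C/D genes rose, Nop58 by 0.56 and Fbl by 0.54.

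Npm1 was the only chaperone gene called here (0.79, SE 0.15, limma adjusted p = 0.00644). Ncl had 0.45 (limma adjusted p = 0.307) and was called in 0 of 18 settings, with 0.65 without leukemia 4 (limma adjusted p = 0.0917). Ddx18 had 0.42 (limma adjusted p = 0.273). Its value became 0.63 and a call without leukemia 4 (limma adjusted p = 0.0123), the 1 setting of 18 that called it. Of the large subunit factors 8 of 10 rose, and of the small subunit factors 6 of 13, Wdr43, Rrp9, Tsr1, Nop14, Nob1 and Wdr75. Several of these calls were narrow: of 18 settings Nop2 was called in 7, Bop1 and Wdr12 in 9, Wdr75 in 10, Pes1 in 11 and Tsr1 in 12. Rrp9, which belongs to the U3 particle (chromosome 9, 106475963 to 106485424), was at 20.7, 19.4 and 24.8 FPKM in the Ebf1 heterozygous libraries and 34.4, 39.9, 34.1, 32.5 and 33.1 in leukemia, without overlap (0.67, SE 0.12, limma adjusted p = 0.00574). Polr1e was the 1 RNA polymerase I gene called (0.54, SE 0.12, limma adjusted p = 0.0157). Rrn3 had -0.03 and Bms1 0.11, and Ubtf had 0.12 here beside -0.19 against wild type. The Ebf1 heterozygous mean of Ubtf, 57.2 ± 10.2 FPKM, was below the means of both other groups, but its libraries overlapped the leukemias. Without Ebf1 heterozygous replicate 1 the value of Ubtf was -0.03.

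The rest of the ribosome pathway gave context for the 38 genes. In leukemia against wild type, 50 of 122 other ribosome biogenesis genes rose and 5 fell, with a median of 0.32. The highest were Mdn1, the large ATPase that strips factors from the large subunit (1.31, SE 0.32, limma adjusted p = 0.00923), its partner Nle1 (1.30, SE 0.18) and Taf1d, of the RNA polymerase I selectivity factor (1.28, SE 0.14). The lowest called were Bysl, of the small subunit pathway (-1.14, SE 0.31, limma adjusted p = 0.0164), the helicase gene Ddx54 (-0.73, SE 0.12) and Exosc9, of the RNA exosome (-0.59, SE 0.15). Bysl fell from 66.4 ± 12.1 FPKM in wild type (SD, n = 3) to 31.3 ± 13 in leukemia (n = 5). Against Ebf1 heterozygous libraries 30 of the 122 rose and 1 fell, and between the progenitor groups none was called.

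Cytoplasmic ribosomal protein genes rose in leukemia against wild type for 72 of the 78 tested, none fell, and their median was 0.80. They did not follow the 38 genes between the pools. Their median differences from the wild-type mean were -0.02, 0.03 and -0.02 in the wild-type pools, where the nucleolar genes ran from -0.50 to 0.33. In Ebf1 heterozygous replicate 1 the ribosomal protein genes stood at 0.73 and the nucleolar genes at -0.13. Against Ebf1 heterozygous libraries 18 of the 78 rose, with a median of 0.52.

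Several of the 38 genes carry small nucleolar RNA genes within their bounds, such RNAs being the guides of the particles described above. GENCODE M21 places them in 7 of the 38: Nop56, Nop58, Ncl, Dkc1, Wdr43, Tsr1 and Gnl3. That is 18.4%, beside 1.85% of 10329 protein-coding genes of at least 1 FPKM, and 6 of the 7 rose in leukemia against wild type, beside 27 of all 38. The levels of those small RNAs themselves were not analysed here. The exons of 11 of the 38 genes overlap exons of another protein-coding gene, as for Nop56 with Idh3b, Gnl3 with Pbrm1, Dkc1 with Mpp1, Rrp1b with Hsf2bp and Rrp9 with Parp3. Whether counting used the strand is not given in the sources used here, so reads of these overlaps cannot be told apart.

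The motif CACGTG, the E-box letters known to be bound by Myc with Max and by related factors, was searched in windows from 250 bases before to 50 after annotated starts (RefSeq, GRCm38.p6). It reads the same on both strands. It was found for 8 of the 33 members with a window (24.2%): Nop2, Utp4, Utp20, Pes1, Tsr1, Utp18, Rrn3 and Wdr43. Among the other ribosome biogenesis genes 16 of 101 had it (15.8%), and among all genes with a window 8.09%, or 12.2% of those of at least 1 FPKM. It was present for 6 of 23 members that rose in leukemia against wild type and for 2 of 10 that did not pass. The 250 bases upstream of 3 members are printed to show a gene that rose and holds the motif, a gene that rose and lacks it in this window, and a gene that did not rise and holds it at 2 places. Each is on the plus strand, 5′ to 3′, with the motif in capitals.

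Nop2, chr6:125131633-125131882: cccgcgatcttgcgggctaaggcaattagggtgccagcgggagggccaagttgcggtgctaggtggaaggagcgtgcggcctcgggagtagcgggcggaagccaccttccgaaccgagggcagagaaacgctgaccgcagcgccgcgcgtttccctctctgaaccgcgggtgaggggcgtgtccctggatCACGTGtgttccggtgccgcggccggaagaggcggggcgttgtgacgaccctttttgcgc
Nop56, chr2:130274162-130274411: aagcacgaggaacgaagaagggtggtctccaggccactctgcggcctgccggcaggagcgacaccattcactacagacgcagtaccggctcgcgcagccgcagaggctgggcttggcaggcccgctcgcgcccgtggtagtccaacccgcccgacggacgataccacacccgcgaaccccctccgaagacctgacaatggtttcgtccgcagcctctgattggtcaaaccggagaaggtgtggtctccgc
Rrn3, chr16:13780449-13780698: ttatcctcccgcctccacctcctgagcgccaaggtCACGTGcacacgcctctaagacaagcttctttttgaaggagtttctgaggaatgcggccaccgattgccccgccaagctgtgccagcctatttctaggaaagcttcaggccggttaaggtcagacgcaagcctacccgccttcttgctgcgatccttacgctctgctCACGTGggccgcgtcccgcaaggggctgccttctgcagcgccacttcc

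In Nop2, which rose by 0.68, the motif begins at position -60 from the start site. In Rrn3, which had -0.10, it begins at -215 and at -48. Nop56, which rose by 1.03, has none in its 250 bases. A match is a description of these letters and not evidence of a factor's binding.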

How the data were processed

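The authors deposited 1 table of FPKM values for 11 libraries, and the labels name the group of each. BWA 0.7.12 is listed for wild type and leukemia in the submitters' processing notes, and TopHat2 and Cufflinks for Ebf1 heterozygous, with build mm10 (GRCm38). No counting tool, annotation or strand setting is given in the sources used here. FPKM steps of all 17380 identifiers above 0 gave whole reads within 0.001 read, and library totals came from them.

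The log2(FPKM + 1) values of genes averaging at least 1 FPKM across the compared libraries entered limma 3.58.1 (R 4.3.3; two-sided, eBayes with a trend, fitted to the compared groups alone). Benjamini-Hochberg adjustment ran over all genes, with calls under 0.05. The fit was also run on simulated reads drawn independently for each gene, without the shifts that genes share between pools. That run cannot decide how such shifts bear on the calls. Figures used Python 3.11.15, pandas 2.3.3, NumPy 2.4.6 and Matplotlib 3.10.9. Replicates are pools of mice or single mice, and p-values measure the spread between them.

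The members and lists were chosen with earlier results of these data known. Named in each comparison and role were the 2 members of largest change past the threshold (1 of largest change if none passed), the 1 of smallest change, and any called lower. Of the other biogenesis genes, the 3 highest and 3 lowest called were named. Bms1, Ubtf, Ncl, Ddx18, Nifk and others given with values beyond this rule were chosen after their values were seen. The value of 1 marker gene is not reported here.

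Deviations from group means of same-numbered wild-type and Ebf1 heterozygous libraries correlated across genes at 0.65, 0.32 and 0.69 for numbers 1, 2 and 3. The numbers were therefore taken to pair these libraries, although the labels state no shared day. Alternatives were pseudocount 0.1, no filter, a filter of 5 FPKM, 2 scalings (quantile, median-ratio), 1 fit of all groups, leaving out each replicate, and a replicate block. Chosen after seeing the data were voom on recovered reads, equal FPKM sums and leaving out both libraries numbered 2.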

Additional observations from a re-analysis of the deposited data

Results flagged for a closer look

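In 5 of the 38 genes a single leukemia stood apart from the other 4, with a gap to its neighbour that took up more than 0.71 of the group's range, Dixon's 95% critical value for 5 samples. Chance flags about 1 in 20 groups if values are normal and genes independent. The 38 genes were not independent, as leukemia 2 was highest for 25 of them. The share of all genes past this rule is not given here, so the count is a description. Ddx18 was at 24.5 FPKM in leukemia 4, with the nearest other at 48.7. Its 9 neighbours within 5 Mb on chromosome 1, of at least 5 FPKM, were all lower in leukemia 4 than the mean of the other leukemias, with a median log2 difference of -0.91, beside -1.08 for Ddx18 and 0.03 over all genes. Around Ncl 26 of 27 such neighbours were lower, with a median of -0.97.

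Leukemia 3 had 63.8 FPKM of Bop1, with the nearest other at 56.4. The 96 neighbours of Bop1 on chromosome 15 had a median log2 difference of 0.25 in leukemia 3, beside 0.22 for Bop1 and -0.03 over all genes, and 15 of the 96 were below 0. Leukemia 2 had 153 FPKM of Nop58 (nearest other 122), 31.2 of Utp18 (24.5) and 39.9 of Rrp9 (34.4). The medians of their 30, 67 and 89 neighbours in leukemia 2 were 0.15, -0.04 and -0.10, beside 0.40, 0.37 and 0.24 for the genes themselves. What set these values apart was not tested.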

How the results depend on the processing

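Of the 27 genes called in leukemia against wild type, 18 were called in all of 18 settings run. The number higher ran from 19 (equal FPKM sums) to 31 (without wild-type replicate 3), and from 23 to 31 on leaving out 1 library. Over all genes, 1471 of 10968 were higher with equal FPKM sums and 2050 of 10867 without wild-type replicate 3. The number lower was 1 with no filter, 2 with equal FPKM sums, and 0 to 1 on leaving out 1 library. The median ran from 0.47 to 0.91 on leaving out 1 library. In leukemia against Ebf1 heterozygous 11 were higher with equal FPKM sums and 14 to 24 on leaving out 1 library. Over all genes tested, 718 were higher with equal FPKM sums and 690 to 1224 on leaving out 1 library.

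With the replicate block, 23 genes were higher in leukemia against wild type, 0 in Ebf1 heterozygous against wild type and 6 in leukemia against Ebf1 heterozygous (Nop56, Npm1, Nop16, Wdr43, Rrp1b and Gnl3). Over all genes tested the block had 1658 of 10968, 0 of 11167 and 350 of 11161 higher, in the same order. Numbers were taken to pair libraries of the progenitor groups alone, and there the block changed no call. Same-numbered deviations correlated at -0.05, 0.07 and -0.13 for wild type and leukemia, and at 0.03, 0.06 and -0.10 for Ebf1 heterozygous and leukemia, so those share only a number.

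Over all 38 genes, 2 changed sign in at least 1 setting in leukemia against wild type, 3 in leukemia against Ebf1 heterozygous and 26 in Ebf1 heterozygous against wild type, none of them called. Of the genes named singly, those of leukemia against wild type were Utp15 with equal FPKM sums (-0.04) and Rrn3 on leaving out 1 library (-0.22 to 0.02). For leukemia against Ebf1 heterozygous they were Rrn3 under quantile scaling (0.04) and on leaving out 1 library (-0.17 to 0.07), Bms1 on leaving out 1 library (-0.21 to 0.28), and Ubtf without Ebf1 heterozygous replicate 1 (-0.03). For Ebf1 heterozygous against wild type, equal FPKM sums gave Nop56 -0.02, Nolc1 -0.07 and Polr1e -0.10, and Polr1e had -0.05 under quantile and -0.03 under median-ratio scaling. On leaving out 1 library, or both numbered 2, that comparison gave Nop56 -0.02 to 0.20, Nolc1 -0.24 to 0.28, Gnl3 -0.01 to 0.69, Bop1 -0.13 to 0.07, Utp18 -0.12 to 0.01, Dkc1 -0.07 to 0.35 and Polr1e -0.04 to 0.06, with a median of the 38 genes from -0.09 to 0.35. The cause was not tested.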

Other observations

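The position of genes was looked at after the stretch of chromosome 1 had been seen, so the values here are a description. Each leukemia was set against the mean of the other 4, over genes with a leukemia mean of at least 5 FPKM. The median of the 323 such genes of chromosome 15 was 0.23 in leukemia 3, and that of the 427 genes of chromosome 17 was 0.19. The medians of both chromosomes in the other leukemias, whose reference includes leukemia 3, lay between -0.11 and 0.01. Over the other 18 chromosomes with at least 20 such genes, medians in any leukemia lay between -0.11 and 0.09. Bop1 is the 1 member on chromosome 15, and its highest leukemia value was in leukemia 3. Rrp1b and Wdr43 are the 2 members on chromosome 17, and in leukemia 3 they stood at 17.4 FPKM, the lowest of the 5, and at 70.8 FPKM, second to leukemia 2 at 75.7. Copy number was not analysed here, and no cause of these medians was tested.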
